A study of Mus musculus with 15 samples.

Results

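Fibronectin (*Fn1*) and 8 matricellular genes were examined: tenascin C (*Tnc*), periostin (*Postn*), thrombospondins 1 and 2 (*Thbs1*, *Thbs2*), *Sparc*, osteopontin (*Spp1*), and the CCN genes *Ccn1* (*Cyr61*) and *Ccn2* (*Ctgf*). They were found by name, as the probes that carry a RefSeq transcript of one of these genes, which gave 16 probes for 9 genes out of 56605 probes and 23462 named genes. The 16 probes were well above background on all 15 arrays and were all tested. Mouse Embryonic Fibroblasts (MEFs, here the established Balb/c 3T3 line, which is 1 clone, A31) were left untreated (control) or treated by a cytokine. TGFß1 was given at 5 ng/ml, TNFα at 10 ng/ml and IL-1β at 1 ng/ml, and the IL-6 group received IL-6 at 20 ng/ml along with soluble receptor sIL-6Rα at 25 ng/ml. Each group holds 3 one-color whole-genome arrays of total RNA, called here by condition and label number, and the methods describe 3 independent experiments with a 24-h stimulation for control, TGFß1 and TNFα. For IL-1β and IL-6 the labels give 24 or 72 h of culture without saying which.

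Fibronectin is a large glycoprotein that cells assemble into fibrils through integrins, and its matrix is among the first laid down in wounds. Matricellular proteins are secreted into the same matrix but act mainly as signals rather than as scaffold: they bind integrins, syndecans, CD44 and growth factors and change how cells adhere, migrate and respond to cytokines. Most are scarce in resting adult connective tissue and abundant in development, repair and fibrosis, and several are textbook targets of TGFß signaling. In RNA of whole cultures, fewer cells of a type and less RNA per cell cannot be told apart.

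Levels are log2 processed signals minus the 75th percentile of their array, so 0 is that percentile. They compare arrays for the same probe, never different genes. Values are those of the brightest probe where a gene has more than 1. A gene was called when its limma q-value, adjusted over the 29334 probes tested, was under 0.05 and its fold-change reached 1.5 either way. The arrays lie on 2 slides, and their label numbers form 3 runs (1 to 5, 6 to 10, 11 to 15) with 1 array of each group. Replicate arrays correlated at 0.990 to 0.995 within a slide and at 0.977 to 0.985 between slides. Once the slide was removed, arrays of the same run deviated together in 30 of 30 pairs, so a model with slide and run is given wherever it changes a call.

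The labelled cell type was checked with marker lists. All 10 fibroblast markers were well above background on every array. Their summed level lay between 10.30 and 10.73 on the TNFα arrays, below the 10.77 to 11.06 of control, and overlapped with control in the other treated groups. The part of this shift in the TNFα results was not tested. The leukocyte markers *Ptprc*, *Adgre1*, *Lyz2* and *Fcgr1* reached that mark on no array, while the other 4 of the 8, among them *Csf1r* and *Itgam*, did on every array. Of 6 endothelial markers, 5 reached it on no array and *Pecam1* on all 15. The summed levels of the leukocyte and endothelial lists overlapped with control in every treated group. The summed level of 6 epithelial markers lay between -1.98 and -0.61 on the TGFß1 arrays, above the -3.05 to -2.0 of control, and between -3.48 and -3.13 on the TNFα arrays, below control. No epithelial marker was detected on all arrays, *Cdh1* and *Krt5* were detected on none, and the part of these markers in the results was not tested. Smooth muscle markers (*Acta2*, *Tagln* and *Cnn1* on all arrays, *Myh11* and *Des* on none) and markers of osteoblasts and chondrocytes (*Sp7* and *Runx2* on all arrays, *Sost* and *Acan* on none) had summed levels that overlapped with control in each group.

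TGFß1 and TNFα moved this group in different ways. TGFß1 raised *Tnc*, *Ccn2* and *Fn1*, by 9.31, 8.46 and 1.75-fold, where 17.9% of all probes tested were called. TNFα raised *Tnc* 5.96-fold and lowered *Thbs2* 1.97-fold, where 10% were called. With 1 array left out, the *Fn1* call held in 3 of 6 fits and the *Thbs2* call in 2 of 6. The *Tnc* and *Ccn2* calls held in each such fit. IL-1β and IL-6 gave no called change, where 0.232% and 0.058% of all probes tested were called. The brightest *Sparc* probe was called in none of the 10 comparisons.

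**Figure D1:**
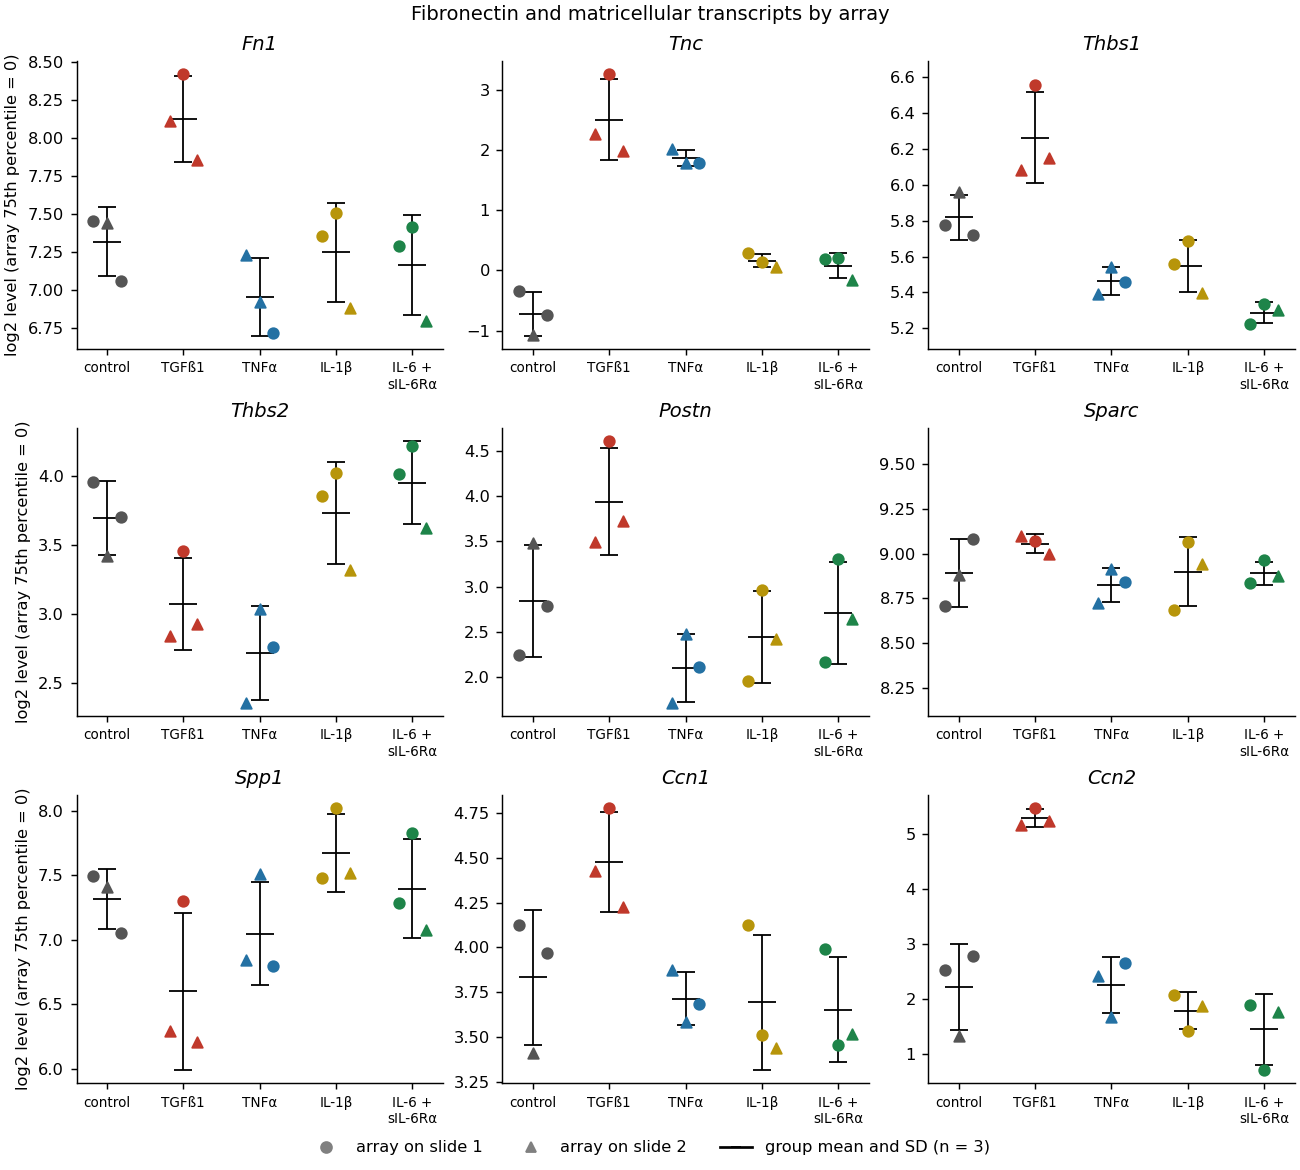
Log2 level (75th percentile of the array = 0) of the brightest probe of each of the 9 genes on each of the 15 arrays; circles are arrays on slide 1, triangles arrays on slide 2, and bars the group mean and SD (n = 3). For *Ccn2* the 3 TGFß1 arrays sit between 5.17 and 5.47, above the other 12 arrays, and for *Tnc* the TGFß1 and TNFα arrays sit above the rest; each panel has its own axis, which does not start at 0.

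Fibronectin, the scaffold protein of the group, had *Fn1* levels of 7.46, 7.44 and 7.06 on control arrays 1, 6 and 11. On TGFß1 arrays 2, 7 and 12 they were 8.11, 8.42 and 7.85. The lowest TGFß1 array lay above the highest control array. The mean rose from 7.32 ± 0.22 to 8.13 ± 0.28 (SD, n = 3), a log2 fold-change of 0.81 ± 0.22 (SE; limma, q = 0.0200). The difference was 1.16 on slide 1 and 0.54 on slide 2. The call was lost without control 11 (0.68, q = 0.0760), TGFß1 2 (0.82, q = 0.0553) or TGFß1 7 (0.66, q = 0.0768), and also under quantile normalization (0.59, q = 0.125), median scaling (0.80, q = 0.0528) and the mean over the 3 probes (0.84, q = 0.0988). With slide and run in the model the value was 0.85 (q = 9.31e-05).

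On TNFα arrays 4, 9 and 14 the *Fn1* levels were 7.23, 6.92 and 6.72. These overlapped with control, and the log2 fold-change of -0.36 was not called (q = 0.344). The IL-1β arrays ranged from 6.89 to 7.51 and the IL-6 arrays from 6.80 to 7.41, both across the control values. In order of the means, TGFß1 stood highest, followed by control, IL-1β, IL-6 and TNFα, and no pair among the last 4 groups differed by a called amount. TGFß1 exceeded TNFα by 1.17 (95% confidence interval 0.68 to 1.65, q = 0.00318), a 2.25-fold difference.

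Tenascin C is a hexameric glycoprotein of wound edges and fibrotic tissue. *Tnc* read -0.34, -1.07 and -0.74 on control arrays 1, 6 and 11, the lowest group mean of the 5. TGFß1 arrays 2, 7 and 12 read 2.27, 3.26 and 1.99, and TNFα arrays 4, 9 and 14 read 2.02, 1.79 and 1.78. Both treated groups lay far above control, and TGFß1 12 lay just below TNFα 4. The log2 fold-change was 3.22 ± 0.28 for TGFß1 (SE; limma, q = 1.12e-05) and 2.58 ± 0.28 for TNFα (q = 8.04e-05). On slides 1 and 2 the TGFß1 difference was 3.79 and 3.20, and the TNFα difference 2.32 and 2.97. Both calls held when any array was left out and under every alternative tried.

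The difference of *Tnc* between TGFß1 and TNFα was 0.64 (95% confidence interval 0.04 to 1.24) and was not called (q = 0.153). It had the same size and was called with slide and run in the model (q = 0.0385), in which 16.1% of all probes were called. It was 1.47 in the run with TGFß1 7 and TNFα 9, against 0.25 and 0.21 in the other runs. The spread among TGFß1 arrays (SD 0.67) was wider than among TNFα arrays (SD 0.13).

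*Tnc* was also higher on each IL-1β array (0.28, 0.15 and 0.06 on arrays 5, 10 and 15) and each IL-6 array (0.18, 0.21 and -0.16 on arrays 3, 8 and 13) than on any control array. These log2 fold-changes, 0.88 for IL-1β (q = 0.636) and 0.79 for IL-6 (q = 1.00), did not pass the adjustment over all probes. The 95% confidence intervals were 0.28 to 1.48 and 0.19 to 1.39. TNFα exceeded IL-1β by 1.70 (q = 0.00346) and IL-6 by 1.78 (q = 0.00122). The order was thus TGFß1 and TNFα, then IL-1β and IL-6, then control, and neighbours in that order differed by a called amount only between TNFα and IL-1β.

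Periostin, a secreted protein that binds collagen and integrins and aids collagen crosslinking, showed the clearest run pattern. *Postn* levels on control arrays 1, 6 and 11 were 2.25, 3.49 and 2.78. They were 3.49, 4.61 and 3.72 on TGFß1 arrays 2, 7 and 12, and 1.71, 2.47 and 2.11 on TNFα arrays 4, 9 and 14. Control 6 lay just under the lowest TGFß1 array, and within each run the TGFß1 array stood highest and the TNFα array lowest of the 5. The within-run difference from control was 1.24, 1.12 and 0.94 for TGFß1 and -0.53, -1.01 and -0.67 for TNFα. The log2 fold-change for TGFß1 was 1.10 (q = 0.0656) and for TNFα -0.74 (q = 0.277), neither of them called.

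Both *Postn* differences were called once slide and run were in the model, at 1.11 for TGFß1 (q = 3.29e-05) and -0.73 for TNFα (q = 0.000582). The second run lay 1.05 above the first across groups. Within slide 2 the TGFß1 difference was 0.12, against 2.09 on slide 1. Slide 2 held control 6, the highest control array, with TGFß1 2 and TGFß1 12. Slide 1 held the other control arrays with TGFß1 7, the highest TGFß1 array. Without control 6, *Postn* was called for TGFß1 in the model without slide and run (1.43, q = 0.0363). TGFß1 exceeded TNFα by 1.84 in that model, a 3.58-fold difference (q = 0.00747).

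**Figure D2:**
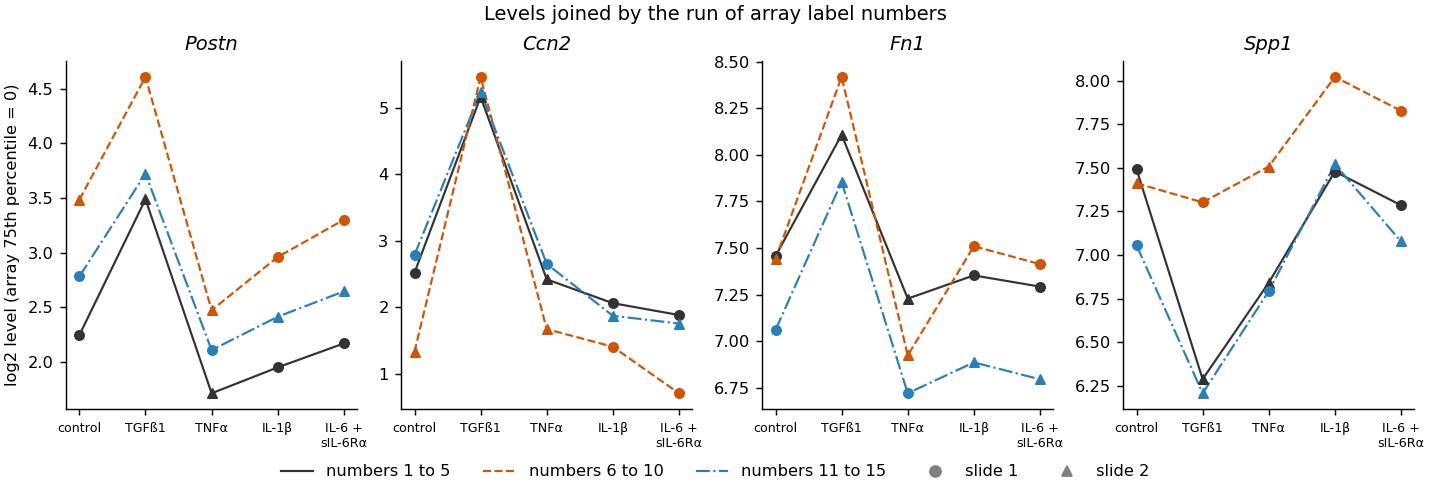
Log2 level (75th percentile of the array = 0) of *Postn*, *Ccn2*, *Fn1* and *Spp1* in the 5 groups, with lines joining the arrays of the same run of label numbers; circles are arrays on slide 1 and triangles arrays on slide 2, and the lines mark the run, not a course in time. The *Postn* lines run nearly parallel, the *Ccn2* lines meet at TGFß1 (5.17 to 5.47), and the *Spp1* line of the run 6 to 10 drops least at TGFß1.

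*Ccn2* and *Ccn1* encode secreted CCN proteins that bind integrins and growth factors; *Ccn2* is a textbook TGFß target and both are classical targets of YAP/TAZ with TEAD. *Ccn2* levels on control arrays 1, 6 and 11 were 2.52, 1.33 and 2.79. On TGFß1 arrays 2, 7 and 12 they were 5.17, 5.47 and 5.24. Control 6 was well below the other controls, while the TGFß1 arrays were close together. The log2 fold-change was 3.08 ± 0.40 (SE; limma, q = 0.000204). The within-slide differences were 2.81 and 3.88, and the within-run differences ran from 2.46 to 4.14. This call held with any array left out (2.64 to 3.37).

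*Ccn2* did not differ detectably between TNFα and control: the arrays read 2.42, 1.67 and 2.65, and the log2 fold-change was 0.04 with a 95% confidence interval of -0.83 to 0.90. The 3 IL-1β arrays read 2.06, 1.41 and 1.87, and the 3 IL-6 arrays 1.88, 0.71 and 1.76. IL-6 was the lowest group, at -0.76 from control (95% confidence interval -1.63 to 0.10, q = 1.00). In each run the IL-6 array was below the control array, by -0.64, -0.62 and -1.03. TNFα exceeded IL-6 by 0.80 (q = 0.257), and with slide and run in the model by 0.94, which was called (q = 0.00778, with 14.1% of all probes called).

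*Ccn1* moved less. Control arrays 1, 6 and 11 read 4.12, 3.41 and 3.97, and TGFß1 arrays 2, 7 and 12 read 4.43, 4.78 and 4.23. The groups did not overlap, and the log2 fold-change of 0.64 was not called (95% confidence interval 0.13 to 1.16, q = 0.0670). It was called with slide in the model (0.75, q = 0.0130, with 20.3% of all probes called) and with slide and run (0.75, q = 0.00173). In the runs the difference was 0.30, 1.37 and 0.26, so the run with control 6 and TGFß1 7 held the largest. Between TGFß1 and the other cytokines *Ccn1* differed by 0.76 (TNFα, q = 0.0478), 0.78 (IL-1β, q = 0.0319) and 0.83 (IL-6, q = 0.0263). The TNFα call was lost whichever array was left out (0.61 to 0.89, q = 0.0520 to 0.180), the IL-1β call without TGFß1 2, TGFß1 7, IL-1β 10 or IL-1β 15 (0.63 to 0.81), and the IL-6 call without TGFß1 2, TGFß1 7, IL-6 8 or IL-6 13 (0.68 to 0.85). All 3 calls were also lost with no filter on dim probes and under median scaling, and the first 2 under quantile normalization.

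Thrombospondin 1 activates latent TGFß and binds CD36 and CD47. *Thbs1* levels were 5.77, 5.96 and 5.72 in control (arrays 1, 6 and 11). TGFß1 arrays 2, 7 and 12 read 6.08, 6.55 and 6.15, and TNFα arrays 4, 9 and 14 read 5.39, 5.54 and 5.46. On this probe every TGFß1 array was above and every TNFα array below the controls. On the dimmer *Thbs1* probe both groups overlapped with the controls (3.19, 3.19 and 2.47). It read 3.35, 3.86 and 2.50 in TGFß1 and 2.67, 2.65 and 2.10 in TNFα. For the brightest probe, the TGFß1 difference of 0.44 passed the q-value threshold (q = 0.0301) but, at 1.36-fold, not the fold-change threshold. The TNFα difference was -0.36 (q = 0.109). Between TGFß1 and TNFα, *Thbs1* differed by 0.80, or 1.74-fold, which was called (q = 0.00127).

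All 3 IL-6 arrays (5.22, 5.34 and 5.31 on arrays 3, 8 and 13) had less *Thbs1* than any control array, and less than any TNFα or IL-1β array. On the dimmer probe they read 2.63, 2.45 and 1.56 and overlapped with control. The IL-6 log2 fold-change of the brightest probe was -0.53 (95% confidence interval -0.82 to -0.24), with an unadjusted limma p of 0.00173 and q = 0.443. Adding slide and run gave a q-value of 0.0191, at 1.45-fold lower and so under the fold-change threshold. The IL-1β arrays read 5.56, 5.68 and 5.40, and their difference of -0.27 had q = 1.00.

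Thrombospondin 2 takes part in collagen fibril assembly and inhibits angiogenesis. *Thbs2* levels were 3.96, 3.42 and 3.71 on control arrays 1, 6 and 11. On TNFα arrays 4, 9 and 14 they were 2.36, 3.03 and 2.76, all below control. The log2 fold-change was -0.98 ± 0.25 (SE; limma, q = 0.0224), -1.07 on slide 1 and -0.73 on slide 2. Leaving out control 1 (-0.85, q = 0.0791), control 11 (-0.97, q = 0.0636), TNFα 4 (-0.80, q = 0.107) or TNFα 14 (-1.0, q = 0.0522) ended the call. TNFα was also lower than IL-1β (-1.01, q = 0.0336) and IL-6 (-1.23, q = 0.00697). The IL-1β call was lost without TNFα 4, TNFα 14, IL-1β 5 or IL-1β 10 (-1.04 to -0.84), and the IL-6 call held with any array left out.

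TGFß1 arrays 2, 7 and 12 read 2.84, 3.46 and 2.93 for *Thbs2*. TGFß1 7 lay within the control range and the other TGFß1 arrays below it, and the log2 fold-change of -0.62 was not called (q = 0.0902). Without TGFß1 7 it was called (-0.81, q = 0.0494). The IL-1β arrays ranged from 3.32 to 4.02 and the IL-6 arrays from 3.62 to 4.21, across the control values. Unlike *Thbs1*, *Thbs2* was not told apart between TGFß1 and TNFα (0.36, 95% confidence interval -0.19 to 0.90, q = 0.421).

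*Sparc* encodes a collagen-binding glycoprotein of bone and remodeling connective tissue. Its levels were 8.71, 8.88 and 9.08 in control and 9.10, 9.07 and 9.00 in TGFß1. TNFα arrays read 8.73, 8.91 and 8.84. Each treated group overlapped with control, while the TGFß1 arrays all lay above the TNFα arrays (0.23, q = 0.272). Against control, the 95% confidence interval of the log2 fold-change was -0.11 to 0.43 for TGFß1, -0.33 to 0.20 for TNFα, -0.26 to 0.28 for IL-1β and -0.27 to 0.27 for IL-6. A change of 1.5-fold lies outside each of these intervals for this probe. The dimmer *Sparc* probe read lower on the 3 TNFα arrays (5.92, 6.27 and 6.40) than on the controls (6.70, 6.71 and 7.10), a log2 fold-change of -0.64 (q = 0.0874). With slide and run in the model, this dimmer probe was called higher in TGFß1 (mean 6.90) than in TNFα (mean 6.20). That model called 16.1% of all probes in this comparison.

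Osteopontin, a secreted phosphoprotein that binds integrins and CD44, had *Spp1* levels of 7.49, 7.41 and 7.06 on control arrays 1, 6 and 11. TGFß1 arrays 2, 7 and 12 read 6.29, 7.30 and 6.21. TGFß1 7 was within the control range and the other TGFß1 arrays were well below it. The log2 fold-change of -0.72 was not called (q = 0.111), and without TGFß1 7 it was -1.07 and called (q = 0.0189). The model with slide and run gave -0.66, which was called (q = 0.00476), with within-run differences of -1.20, -0.11 and -0.85. TGFß1 7 was the only TGFß1 array on slide 1, where the difference was 0.03, against -1.16 on slide 2.

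*Spp1* was highest in IL-1β, at 7.48, 8.02 and 7.52 on arrays 5, 10 and 15, but those values overlapped with control (0.35, q = 1.00). IL-1β exceeded TGFß1 2.10-fold, with no overlap between the groups (-1.07 for TGFß1 against IL-1β, q = 0.0251). That call was lost without TGFß1 2, TGFß1 12 or IL-1β 10 (-0.92 to -0.88, q = 0.0973 to 0.113), and also with no filter on dim probes, under median scaling and with only the 2 groups fitted (-1.07 to -0.99, q = 0.0565 to 0.0678). The TNFα arrays (6.84, 7.51 and 6.79) and IL-6 arrays (7.29, 7.83 and 7.08) overlapped with the controls.

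Over the 9 genes, TGFß1 against control gave 3 calls, all higher, where 17.9% of all probes tested were called, 7.51% in the higher direction. The median log2 fold-change of the genes was 0.64, against 0.07 over all probes. The model with slide and run called 6 genes, *Fn1*, *Tnc*, *Ccn1*, *Ccn2* and *Postn* higher and *Spp1* lower, and 22.7% of all probes, 10.9% higher and 11.8% lower. TNFα against control gave 2 calls, 1 in each direction, where 10% of all probes were called, 4.09% higher and 5.96% lower. With slide and run it gave 3 calls (*Postn* lower in addition) against 15.4%, 7.68% higher and 7.74% lower. The median of the 9 genes was -0.27 for TNFα, against 0.04 over all probes.

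IL-1β and IL-6 gave 0 calls each by limma, against the background of 0.232% and 0.058% of all probes. At an unadjusted p below 0.05, limma gave 1 gene for IL-1β (*Tnc*) and 2 for IL-6 (*Tnc* and *Thbs1*). The share of all probes at this looser threshold was not counted, so the percentages of called probes are no background for it. The count stayed at 0 for the brightest probes when slide and run were added, with 1.1% and 0.787% of all probes called. The second *Tnc* probe was then called for IL-1β (1.22, q = 0.0491) and the second *Thbs1* probe for IL-6 (-0.73, q = 0.0409).

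**Figure D3:**
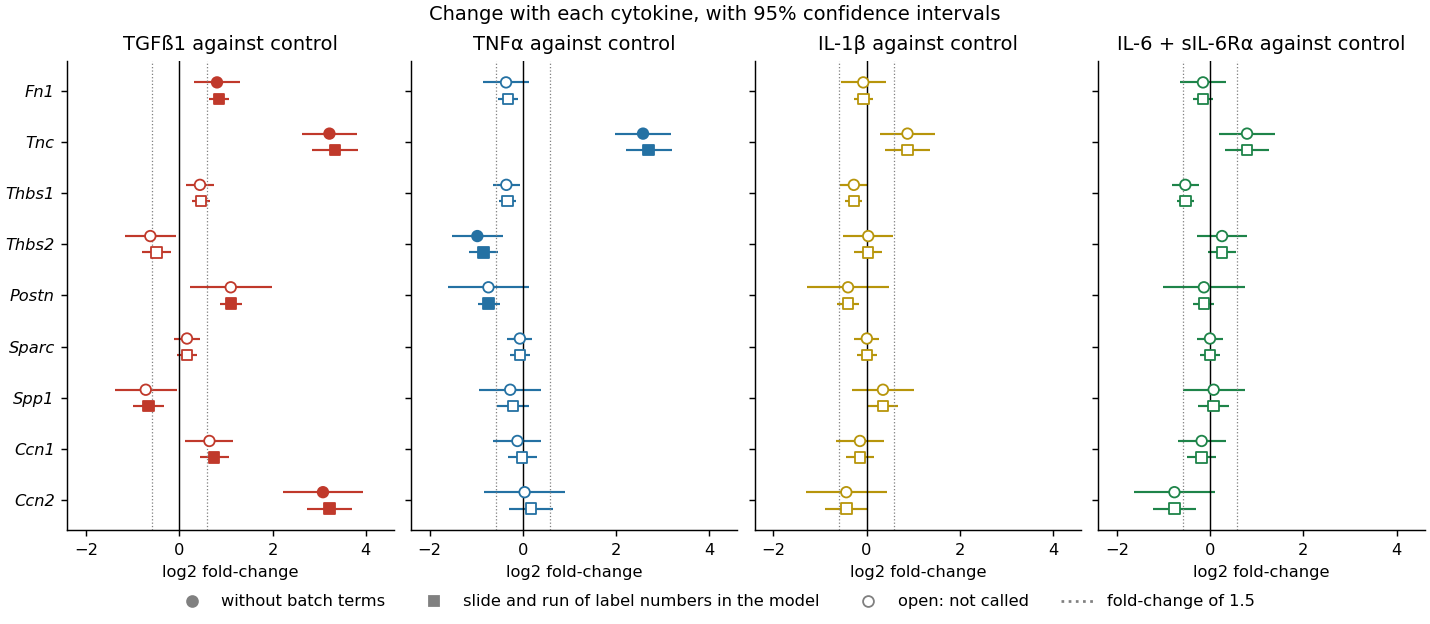
Log2 fold-change against control of the 9 genes (brightest probe) for each cytokine, with 95% confidence intervals; circles are the model without batch terms, squares the model with slide and run, filled symbols were called, and dotted lines mark a fold-change of 1.5. *Tnc* and *Ccn2* stand at 3.22 and 3.08 for TGFß1, *Tnc* at 2.58 for TNFα, and the intervals are narrower with slide and run for most genes.

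Compared directly, the cytokines gave the most calls where TGFß1 was involved. TGFß1 against TNFα gave 5 calls of 9 (*Fn1*, *Thbs1*, *Postn*, *Ccn1* and *Ccn2*), all higher in TGFß1, where 11.8% of all probes were called and 5.17% were higher. TGFß1 against IL-1β gave 7 calls, 6 higher and *Spp1* lower, against 16.9% of all probes, 6.68% higher and 10.2% lower. TGFß1 against IL-6 gave 7 calls, 6 higher and *Thbs2* lower (-0.88, q = 0.0247), against 16.3%, 6.57% higher and 9.69% lower. The *Thbs2* call was lost without TGFß1 2, TGFß1 12, IL-6 3 or IL-6 8 (-0.85 to -0.75), and the *Thbs1* difference from IL-1β fell under 1.5-fold without TGFß1 7 (0.57). The 6 higher were the same genes in both, *Fn1*, *Tnc*, *Thbs1*, *Postn*, *Ccn1* and *Ccn2*, and the comparisons share the TGFß1 arrays.

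The largest of these differences was *Ccn2*, at 3.04 against TNFα, 3.51 against IL-1β and 3.84 against IL-6, which are 8.25, 11.4 and 14.4-fold. *Tnc* stood 5.06-fold above IL-1β and 5.37-fold above IL-6. *Fn1* stood 1.84 and 1.95-fold, *Thbs1* 1.64 and 1.96-fold, and *Postn* 2.83 and 2.35-fold above IL-1β and IL-6. The *Postn* call against IL-6 (1.23, q = 0.0456) was kept without IL-6 8 and lost without any other array of the 2 groups (0.90 to 1.46). It was also lost with no filter on dim probes, with quantile normalization, with only the 2 groups fitted and with the mean over probes (1.12 to 1.23, q = 0.0619 to 0.0985). That against IL-1β was lost without TGFß1 7 (1.16, q = 0.0751) or IL-1β 5 (1.25, q = 0.0674). The *Fn1* call against IL-1β was lost without TGFß1 7 (0.73, q = 0.0578) or IL-1β 15 (0.70, q = 0.0531).

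TNFα against IL-1β and TNFα against IL-6 gave 2 calls each, *Tnc* higher and *Thbs2* lower, where 4.69% and 8.59% of all probes were called. The higher calls made up 1.68% and 3.45% of all probes and the lower calls 3.01% and 5.14%. IL-1β against IL-6 gave 0 calls by limma, where 0.399% of all probes were called. At an unadjusted limma p below 0.05 it gave 0 genes, with no share of all probes counted. The 23 called differences between cytokines and the 5 against control had the same sign on both slides and in all 3 runs. They were called on these same arrays, so the shared sign is a description and no independent check. Slide and run in the model brought the differences between cytokines to 27. The 4 added were *Tnc* (TGFß1 against TNFα) and *Ccn2* (TNFα against IL-6), given above, *Spp1* lower in TGFß1 than IL-6 (-0.74, q = 0.00282, with 21.6% of all probes called) and *Postn* lower in TNFα than IL-6 (-0.60, q = 0.00195).

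Genes with several probes allowed a check within the gene. The 2 *Tnc* probes correlated at 0.980 over the 15 arrays and gave log2 fold-changes of 3.22 and 3.22 for TGFß1 and 2.58 and 2.49 for TNFα. The 3 *Postn* probes correlated at 0.968 to 0.992, and the 3 *Fn1* probes at 0.923 to 0.962. The other *Fn1* probes gave 0.88 (q = 0.118) and 0.83 (q = 0.273) for TGFß1, close to the 0.81 of the brightest but with wider spread. These values are from the model without slide and run, which called 4 of the 16 probes for TGFß1 against control. With slide and run 11 of the 16 were called, where 22.7% of all probes were called. For *Thbs1* and *Sparc* the 2 probes correlated at 0.691 and 0.625. Correlations over arrays share slides, runs and groups.

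**Figure D4:**
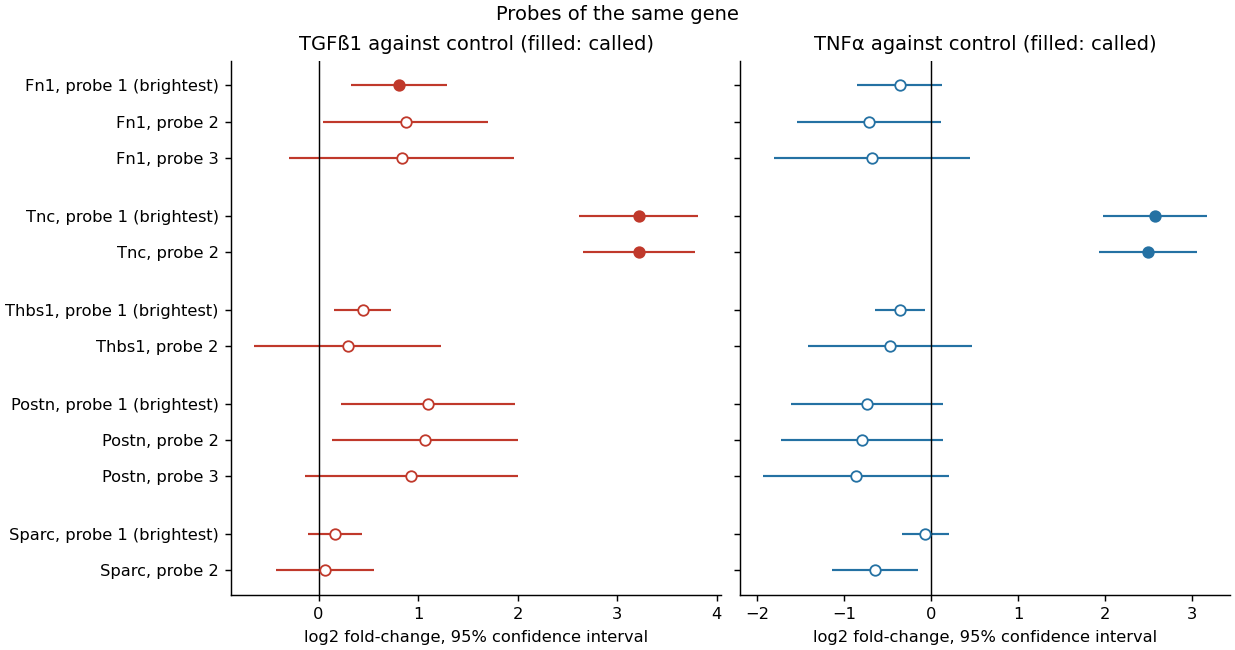
Log2 fold-change with 95% confidence interval of each probe of the 5 genes with several probes, for TGFß1 and TNFα against control; filled circles were called, and probe 1 is the brightest. The model is the one without slide and run. Both *Tnc* probes stand near 3.22 for TGFß1, and the *Fn1* probes share the direction while only the brightest was called.

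Promoter sequence is shown for *Tnc*, *Ccn1* and *Postn*, whose TGFß1 arrays all lay above control, and for *Thbs2*, which TNFα lowered. A RefSeq table of GRCm38.p6 held 250 bases before the start site for 6 of the 9 genes. Capitals mark matches, on either strand, to the SMAD box (CAGAC), the TEAD motif (GGAATG) or the TATA box (TATAAA). The *Tnc* window is that of its more downstream start site, chr4:64046937-64047186 on the minus strand, with a SMAD box at -70 to -66 and a TATAAA at -205 to -200. *Ccn1* is at chr3:145649986-145650235, minus strand, with a TEAD motif at -103 to -98 and a TATAAA at -25 to -20. *Postn*, also by its more downstream start site, is at chr3:54360857-54361106, plus strand, with a TATAAA at -26 to -21. *Thbs2* is at chr17:14694263-14694512, minus strand, with SMAD boxes at -66 to -62 and -43 to -39 and a TATAAA match on the other strand at -126 to -121.
Tnc: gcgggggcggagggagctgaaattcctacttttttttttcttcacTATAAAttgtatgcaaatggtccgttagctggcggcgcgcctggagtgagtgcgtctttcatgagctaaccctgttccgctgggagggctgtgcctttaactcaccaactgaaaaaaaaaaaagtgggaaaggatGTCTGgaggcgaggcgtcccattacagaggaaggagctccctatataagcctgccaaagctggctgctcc
Ccn1: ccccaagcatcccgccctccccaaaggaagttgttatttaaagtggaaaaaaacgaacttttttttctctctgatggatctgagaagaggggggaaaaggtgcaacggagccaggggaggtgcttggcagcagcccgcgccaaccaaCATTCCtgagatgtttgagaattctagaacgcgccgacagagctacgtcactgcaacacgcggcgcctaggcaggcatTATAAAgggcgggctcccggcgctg
Postn: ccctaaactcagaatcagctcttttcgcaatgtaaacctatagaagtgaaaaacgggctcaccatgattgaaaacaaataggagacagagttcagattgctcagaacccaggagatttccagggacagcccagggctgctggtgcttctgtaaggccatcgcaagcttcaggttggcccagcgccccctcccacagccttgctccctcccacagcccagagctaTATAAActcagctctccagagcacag
Thbs2: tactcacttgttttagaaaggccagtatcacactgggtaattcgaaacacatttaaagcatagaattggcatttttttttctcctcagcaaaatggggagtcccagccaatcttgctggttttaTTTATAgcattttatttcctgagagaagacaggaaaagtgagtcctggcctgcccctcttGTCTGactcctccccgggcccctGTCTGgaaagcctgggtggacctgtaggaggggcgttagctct

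The SMAD box was also in the *Sparc* window, both *Spp1* windows and the other *Postn* window. It was not in the other *Tnc* window, which held only a TATAAA match. Over 32851 windows of this length, 42.2% held CAGAC, 12.6% GGAATG and 12.4% TATAAA. The SMAD palindrome GTCTAGAC (0.167% of windows), the AP-1 motif TGANTCA (6.75%), the NF-kB motif (1.41%), the CArG box (1.47%) and the STAT motif TTCNNNGAA (7.02%) were in none of the 9 windows of these genes. A match is a run of letters and not a measured binding site.

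Receptors were described next, from a list of 14 genes of which 10 were tested. This list and those that follow were written with earlier results of these data known, so their counts are no independent check. TGFß1 gave 6 higher and 1 lower call with a median log2 fold-change of 0.82, where the median over all probes was 0.07 and 7.51% of them were called higher and 10.4% lower. *Itgb3* and *Itga5*, the integrin chains that with αv and β1 form fibronectin receptors, rose 3.91-fold (1.97 ± 0.14 SE, limma, q = 2.82e-06) and 3.00-fold (1.58 ± 0.24, q = 0.000587). *Itga5* read 1.76, 1.02 and 1.89 in control and 3.13, 3.15 and 3.14 in TGFß1, with no overlap. *Itgb1* (0.84) and *Itgav* (0.80) rose less. *Sdc1* rose by 1.19 while *Sdc4*, another syndecan, fell by 0.95. *Cd44*, the hyaluronan and osteopontin receptor, rose with TGFß1 (0.91, q = 0.00117) and with TNFα (0.90, q = 0.00210). It was the sole TNFα call of the list, where 10% of all probes were called. IL-1β and IL-6 gave 0 calls by limma.

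Relatives of the 9 genes formed a list of 22 with 16 tested. TGFß1 gave 3 higher and 7 lower calls (median -0.36), where 7.51% of all probes were called higher and 10.4% lower. TNFα gave 1 higher and 6 lower (median -0.69), where 4.09% of all probes were called higher and 5.96% lower. Under TGFß1, *Ccn3* (*Nov*) was not well above background on any array and fell at least 3.26-fold from control (q = 0.00104), in contrast to its relatives *Ccn2* and, at 2.27-fold higher, *Ccn4* (q = 0.000606). *Ccn5* fell by 1.31. The tenascins *Tnxb* and *Tnn* fell by 2.22 and 2.20, against the rise of *Tnc*. *Smoc1* and *Smoc2*, calcium-binding relatives of *Sparc*, rose by 2.71 and 1.68, with *Smoc1* detected on 2 of 3 control arrays.

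Under TNFα the *Sparc* relative *Sparcl1* was at -2.59, -2.06 and -2.46, against 1.13, 2.11 and 1.57 in control, a log2 fold-change of -3.97 (limma, q = 5.42e-05). *Tgfbi*, a periostin relative with the same fasciclin domains, was at 1.01, 0.90 and 1.07 against 3.54, 3.20 and 3.39 (-2.38, q = 5.24e-05). Neither group overlapped with control. *Smoc2* rose by 1.37, and *Comp*, *Fbln5* and *Thbs3* fell by 0.97, 0.82 and 0.75. The model with slide and run gave 2 higher and 8 lower calls for TNFα, where 7.68% of all probes were called higher and 7.74% lower. It gave 2 calls for IL-1β and 3 for IL-6, where 1.1% and 0.787% of all probes were called. These 2 groups had 0 calls without those terms. Among the calls added, *Tgfbi* was 1.18 higher with IL-6 (q = 0.00302).

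TGFß response genes were also described, from a list chosen with earlier results of these data known, so it is no independent check. Of 12, TGFß1 called 8 higher and 1 lower (median 1.56), against 17.9% of all probes called, with *Tgfb3* at 2.46, *Pmepa1* at 2.30, *Smad7* at 2.02 and *Tgfb2* at 1.62. *Tgfbr2*, the type 2 receptor, fell by 0.90. TNFα called *Ltbp2* higher (1.13) and *Tgfb2* lower (-1.19), against 10% of all probes. Of 22 YAP/TAZ-TEAD targets 19 were tested, and TGFß1 called 4 higher (*Ankrd1* 1.91, *Gadd45a* 1.69, *Nuak2* 1.43 and *Tgfb2*, which both lists hold) and *Crim1* lower (-0.66), with a median of 0.13, against the same 17.9%. TNFα called *Gadd45a* (1.36) and *Amotl1* (0.82) higher and *Tgfb2* and *F3* (-1.07) lower, against the same 10%. Neither list gave a call for IL-1β or IL-6 by limma. With slide and run IL-1β called *Ltbp2* higher (0.83, q = 0.00359), where 1.1% of all probes were called.

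Proteases that cut these proteins were called in both directions by TGFß1 and TNFα. Of 12 tested, TNFα called 5 higher and 2 lower (median 0.45), where 4.09% of all probes were called higher and 5.96% lower. TGFß1 called 4 higher and 2 lower (median 0.53), where 7.51% were called higher and 10.4% lower. *Mmp13* was at -2.42, -2.56 and -2.34 in control and at 3.65, 3.02 and 3.55 with TNFα, a log2 fold-change of 5.84 ± 0.22 (SE; limma, q = 1.85e-08). *Mmp10*, *Mmp9* and *Mmp3* rose by 4.72, 4.31 and 3.89. *Mmp3*, stromelysin 1, which cuts fibronectin and tenascin C, fell by 2.81 with TGFß1 (q = 9.20e-05). *Adamts1*, which cuts thrombospondins, fell with both, by 2.81 and 2.46. *Plat*, the tissue plasminogen activator, rose by 2.77 with TGFß1 and by 0.72 with TNFα. *Mmp13* was the sole call of the list for IL-1β (2.60, q = 0.000205), where 0.232% of all probes were called. Slide and run brought IL-1β to 5 calls and IL-6 to 1, where 1.1% and 0.787% of all probes were called.

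The genes most like each member over the 15 arrays were found among 13486 other named genes by Pearson's r. *Ccn2* was closest to *Ucn2* (0.992), *Cd109* (0.989) and *Rcor2* (0.985). *Tnc*, which TGFß1 and TNFα both raised, was closest to *Agpat1* (0.953), *Ccdc88b* (0.951) and *Rhob* (0.948). *Ccn1* was closest to *Gatad2a* (0.971), *Thbs1* to *Bcl2* (0.964), *Postn* to *Plekha2* (0.950), *Fn1* to *Rftn2* (0.947), *Thbs2* to *Hk1* (0.940) and *Spp1* to *Psd3* (0.939). *Sparc*, which varied least, had no r above 0.842 (*Ldha*). Among the members, *Ccn1* and *Ccn2* correlated most (0.863), followed by *Fn1* and *Thbs1* (0.829) and *Thbs1* and *Postn* (0.809), while *Spp1* ran against *Ccn2* (-0.725). The 15 arrays share groups, slides and runs, so these values are descriptions.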

How the data were processed

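RNA of 15 cultures was labelled with Cyanine 3 and hybridized to one-color Agilent arrays. After scanning, the authors read the spots out with Feature Extraction (version 10.7.3.1 in the submitters' processing notes). The deposited files hold the processed signal intensity of each spot, background-subtracted and detrended by that software and not normalized between arrays, on a linear scale. The deposited series-wide values are those same intensities, with a largest difference of 0. No saturated spot was marked.

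Non-uniform and outlier spots were left out. Log2 intensities of repeated spots were averaged per probe, less the 75th percentile of their array. That percentile lay between 325 and 445 in signal, and 48.3% to 54.9% of probes per array were well above background. A probe was tested if well above background (at least 0.5 of its spots) on every array of at least 1 group, which left 29334 of 56605. RefSeq identifiers named 33767 probes. The number of arrays limits the precision.

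Groups came from the labels. All 15 arrays were fitted together with limma 3.58.1 in R 4.3.3 with no covariate, two-sided, with Benjamini-Hochberg adjustment over all probes, and the threshold was a q-value below 0.05 and a fold-change of 1.5. The steps were tested on simulated data. The labels do not say which arrays come from the same culture or experiment, so p-values measure the spread between these arrays. The pairing by run rests on the data: without removing the slide, 12 of 30 same-run pairs and 28 of 60 other pairs had an r over 0.1, and with the slide removed 30 of 30 and 2 of 60. The slide was read from the file headers, and the scan coincides with it.

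Genes named were the 9 members in each comparison, at most 6 called genes of each of the 5 lists, chosen by size of change, and the 3 genes most like each member. The members and lists were chosen with earlier results of these data known. Bounds on folds use, for each array without detection, the larger of the probe's signal and the dimmest signal well above background. Alternatives tried were slide and run terms, quantile and median scaling, normexp with offset 50 (on the median signal, added after seeing the data), other filters, other sets of arrays, outlier spots kept, a variance trend, the mean over a gene's probes, and leaving out each array. Protein sequences and a genome were not used here.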

Additional observations from a re-analysis of the deposited data

How the results depend on the processing

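With the replicate block of label-number runs, alone or together with the slide, TGFß1 called 6 of the 9 genes in place of 3. With the slide alone it called 4. Of the 29334 probes tested, 5951, 6659 and 5948 were called in these settings, in that order, in place of 5250. TNFα called 1 gene in place of 2, losing *Thbs2*, when no probe was filtered out and when only the arrays of the 2 groups compared were fitted. There 2288 of 56605 and 2143 of 28268 probes were called, in place of 2948 of 29334. When each array was left out in turn, TGFß1 called 2 to 4 genes, TNFα 1 to 2, IL-1β 0 to 0, IL-6 0 to 0, and the cytokine pairs together 17 to 22 in place of 23. Among all probes, TGFß1 against control then called 3986 to 5384, TNFα 1847 to 2642, IL-1β 40 to 55 and IL-6 4 to 18. TNFα fell to 1 of the 9 genes without control 1, control 11, TNFα 4 or TNFα 14. Without TGFß1 7 the 4 TGFß1 calls were 2 higher and 2 lower. Under quantile normalization TGFß1 called *Thbs2* lower (-0.73, q = 0.0484) and lost *Fn1*, so the count stayed at 3. Median scaling and the mean over a gene's probes lost *Fn1* and left 2, and normexp added *Ccn1*. In these settings, in that order, TGFß1 called 4996 and 3855 of all probes, 2958 of 13528 genes, and 3472 of all probes. Among the cytokine pairs, having no filter left 16 of the 23 calls (15 higher, 1 lower, in place of 19 and 4) and median scaling 17 (16 higher, 1 lower). Both ended the 3 *Ccn1* calls, *Spp1* (TGFß1 against IL-1β) and *Thbs2* (TGFß1 against IL-6, TNFα against IL-1β), and the missing filter also *Postn* (TGFß1 against IL-6). Quantile normalization gave 19, ending *Fn1* and *Thbs1* against IL-1β, *Postn* against IL-6 and *Ccn1* against TNFα and IL-1β and adding *Thbs2* against IL-1β, all for TGFß1. Fitting only the 2 groups gave 19, ending *Spp1* and *Ccn1* (TGFß1 against IL-1β), *Postn* (TGFß1 against IL-6) and *Thbs2* (TNFα against IL-1β). The mean over probes gave 20, ending *Fn1* and *Thbs1* against IL-1β and *Postn* against IL-6, again for TGFß1. *Ccn1* against TNFα was also lost when 9 arrays (control, TGFß1 and TNFα) were fitted (q = 0.0527). The calls over all probes moved as well. For TGFß1 against IL-1β they went from 4963 of 29334 to 4164 of 56605 with no filter and 3594 under median scaling. Quantile normalization gave 4569, fitting only the 2 groups 4442 of 28749, and the mean over probes 2758 of 13528 genes.

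Among single genes, each gene and comparison was counted once per setting, whether called or not. Only 5 differences against control and 23 between cytokines were calls to begin with, so most unchanged values are uncalled ones. The model with slide or run left the status of 253 of 270 values unchanged and added 17 calls. The other settings left 803 of 837 unchanged, lost 31 calls and added 3. Leaving out an array left 491 of 540 unchanged, lost 42 calls and added 7. No called value changed sign. Median scaling moved the share of higher calls among all probes called for TNFα from 40.7% to 29.6%. The median of all probes shifted by less than 0.1 in the comparisons under each scaling. The number of arrays, 3 a group on 2 slides, limits the precision.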
